A study of Homo sapiens with 6 samples.

Results

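Syndecans, glypicans, perlecan, agrin and biglycan are proteoglycans, core proteins that carry long sulphated sugar chains and sit on the cell surface or in the matrix. The genes examined here were picked by symbol: 4 syndecans (SDC1, SDC2, SDC3 and SDC4), 3 glypicans (GPC1, GPC4 and GPC6), and HSPG2, AGRN and BGN, which encode perlecan, agrin and biglycan. Each of the 10 had 1 entry among the 53826 entries of the deposited tables. The RNA of A549-GFP cells, the control line, and of A549-TIPARP cells was sequenced in 3 libraries apiece. Both derive from A549, an established line from a human lung adenocarcinoma. They were made by retroviral transduction with pMXs vectors and are labelled as stable, the one with TIPARP, an enzyme that adds single ADP-ribose units to proteins, the other with GFP. The labels number the experiments 1 to 3, here control libraries 1 to 3 for A549-GFP and TIPARP libraries 1 to 3 for A549-TIPARP. They do not say whether these were separate cultures or transductions, so p-values weigh a difference only against the spread between these libraries.

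Heparan sulphate proteoglycans hold growth factors at the cell surface and pass them to their receptors, and they tie epithelial cells to the matrix. Syndecans cross the membrane, with a short tail that binds PDZ-domain adaptors and the cytoskeleton. Glypicans are tethered to the outer leaflet by a lipid anchor. Perlecan and agrin are large secreted core proteins of basement membranes, and biglycan is a small leucine-rich proteoglycan of connective tissue that carries chondroitin or dermatan sulphate.

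Expression is given as TPM, a length-corrected share of all transcripts in a library, so levels of different genes can be compared. The authors deposited the log2 of TPM, in which values under 1 TPM were raised to 1, here called the floor, and TPM keeps no record of depth. A gene was analysed if its TPM was above 2 in at least 1 library, which held for 13181 entries and for 8 of the 10 proteoglycan genes. GPC4 and BGN were at the floor in all 6 libraries. Fold changes are differences of the mean deposited log2 TPM of the lines. The difference between the lines was tested against the spread between replicates by limma on log2(TPM + 1) of all 13181 genes. Benjamini-Hochberg adjustment was over all of them.

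The targeted gene matched the labels, with 3.68 to 11.4 TPM of TIPARP in control libraries and 90.5 to 131 TPM in TIPARP libraries (log2 fold change 4.11, limma adjusted p = 0.0125). Without any one library the log2 fold change was 3.69 to 4.50 and the adjusted p-value 0.0331 to 0.192, under 0.05 only without control library 2. The gene-level values do not separate the transgene from the endogenous gene. Control library 2 stood apart, deviating from its line's mean log2 TPM by 0.621 (root mean square over genes), where the other libraries deviated by 0.185 to 0.400. It was the highest of the 6 libraries for 52% of analysed genes. All 10 epithelial and A549 markers were analysed, with a sum of 24430 TPM in control library 2 and 34860 to 39070 TPM in the other libraries. Of the markers of other cell types, 8 of 10 fibroblast and 9 of 10 endothelial genes were at the floor in every library, among them COL1A2, PDGFRB, PECAM1 and VWF. Summed above the floor, the fibroblast list had 1.09 to 1.44 TPM in A549-GFP and 1.64 to 2.56 TPM in TIPARP libraries, and the endothelial list 2.43 to 8.09 and 4.58 to 8.10 TPM. Of 7 leukocyte markers, 3 were at the floor throughout, PTPRC among them. The list summed to 80.8 TPM in control library 2, 31.9 and 34.6 TPM in control libraries 1 and 3, and 32.9 to 48.5 TPM in TIPARP libraries.

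Promoters of genes described here are printed to show how differently they are built. RefSeq start sites on GRCh38.p14, with 250 bases before and 50 after the start, were given for 8 of the 10 genes, all but SDC2 and AGRN, and SDC1 had 2 of them. All 9 windows were identical to hg38, the build the authors used. Of these, 6 are shown, each 5′ to 3′ in the sense of the gene. Both SDC1 starts are shown because SDC1 was the most abundant syndecan, SDC3 and HSPG2 because their means were higher in A549-TIPARP cells, SDC4 because it was high in a single control library, and BGN because it was at the floor. Capitals mark GGGCGG, the GC box bound by Sp1-type factors, or its reverse complement CCGCCC, and the TATA box core TATAA or its reverse complement TTATA.
SDC1 upstream start, chr2:20225426-20225725, minus strand: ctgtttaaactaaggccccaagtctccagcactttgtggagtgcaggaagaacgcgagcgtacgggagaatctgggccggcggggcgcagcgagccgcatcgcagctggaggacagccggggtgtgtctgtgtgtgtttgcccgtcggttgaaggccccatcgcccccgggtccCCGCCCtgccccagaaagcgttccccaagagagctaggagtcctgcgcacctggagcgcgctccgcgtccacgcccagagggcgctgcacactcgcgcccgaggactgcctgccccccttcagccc
SDC1 downstream start, chr2:20225081-20225380, minus strand: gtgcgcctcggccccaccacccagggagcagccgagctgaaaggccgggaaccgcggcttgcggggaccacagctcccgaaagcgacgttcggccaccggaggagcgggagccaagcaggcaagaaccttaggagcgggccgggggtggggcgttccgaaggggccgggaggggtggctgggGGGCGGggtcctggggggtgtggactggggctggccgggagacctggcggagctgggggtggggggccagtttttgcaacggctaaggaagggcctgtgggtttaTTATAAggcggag
SDC3, chr1:30908709-30909008, minus strand: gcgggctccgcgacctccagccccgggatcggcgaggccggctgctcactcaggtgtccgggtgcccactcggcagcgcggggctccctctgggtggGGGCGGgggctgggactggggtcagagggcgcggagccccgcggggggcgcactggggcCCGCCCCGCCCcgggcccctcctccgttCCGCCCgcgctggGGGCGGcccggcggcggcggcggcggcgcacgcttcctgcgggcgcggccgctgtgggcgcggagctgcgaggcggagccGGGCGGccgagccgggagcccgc
SDC4, chr20:45348375-45348674, minus strand: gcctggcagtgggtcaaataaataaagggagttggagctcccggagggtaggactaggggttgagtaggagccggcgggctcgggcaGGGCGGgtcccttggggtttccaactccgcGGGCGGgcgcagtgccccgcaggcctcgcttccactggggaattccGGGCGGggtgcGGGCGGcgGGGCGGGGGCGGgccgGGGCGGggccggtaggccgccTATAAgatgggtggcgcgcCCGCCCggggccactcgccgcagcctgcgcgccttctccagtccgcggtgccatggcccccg
HSPG2, chr1:21937261-21937560, minus strand: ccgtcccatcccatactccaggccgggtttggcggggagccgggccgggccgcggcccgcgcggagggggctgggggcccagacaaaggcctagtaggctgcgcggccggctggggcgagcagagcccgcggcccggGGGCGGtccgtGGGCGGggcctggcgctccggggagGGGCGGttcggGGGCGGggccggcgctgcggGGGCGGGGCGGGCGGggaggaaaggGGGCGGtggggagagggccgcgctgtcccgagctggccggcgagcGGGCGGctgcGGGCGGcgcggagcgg
BGN, chrX:153494730-153495029, plus strand: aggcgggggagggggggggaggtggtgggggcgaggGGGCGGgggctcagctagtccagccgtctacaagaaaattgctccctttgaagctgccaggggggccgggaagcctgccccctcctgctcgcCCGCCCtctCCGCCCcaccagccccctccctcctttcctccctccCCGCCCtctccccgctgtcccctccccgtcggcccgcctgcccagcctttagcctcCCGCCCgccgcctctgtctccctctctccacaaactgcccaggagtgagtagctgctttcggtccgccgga

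The HSPG2 window held 10 GC boxes, all in the forward orientation, in a window of 83.3% GC. SDC4 held 8, SDC3 held 6, BGN held 5, GPC1 held 4 and GPC4 held 2, while each SDC1 window held 1 and GPC6 none. Of the 35116 RefSeq promoter windows of this length, 45.0% held at least 1 GC box on either strand. TATAA was found in the windows of SDC4, GPC6 and the downstream SDC1 start and in 20.4% of all windows. In SDC4 it began 31 bases before the start site, in GPC6 155 bases before it, and in SDC1 38 bases after it, where the forward and reverse matches overlap. GCGTG, the core of the site bound by the dioxin receptor AHR, occurred 4 times in GPC4 and once each in SDC3 and the upstream SDC1 window, counting both strands, against 36.5% of all windows with a match. CCAAT was in none of the 9 windows and in 34.6% of all windows. These matches describe letters in the windows and no binding was measured.

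Across the lines, none of the 8 analysed proteoglycan genes had a limma adjusted p-value under 0.05, against 0.0152% of all analysed genes. An unadjusted p-value under 0.05 was found for SDC2 and AGRN, both higher in A549-TIPARP cells (2.97% of all genes on that side), and for none on the lower side (0.88%), against 3.85% of all genes on either side. With the experiment number as a block in limma, the unadjusted p-values were 0.0566 for SDC2 and 0.0721 for AGRN. SDC2 was 2.01-fold higher in A549-TIPARP cells and was the only gene of the set past 2-fold, with 1.53% of all analysed genes past it in that direction and 0.432% in the other, 1.96% together. That fold is against a control line at the floor in 2 of 3 libraries, and on the log2 scale it was 1.01, 0.62 with a pseudocount of 1 and 3.25 with a pseudocount of 0.1 and floor values at 0. SDC2 and AGRN were also the genes for which the lines did not overlap, as for 5.36% of analysed genes with A549-TIPARP higher, 3.54% with it lower and 8.91% in all. SDC2 entered these counts only through the TIPARP libraries, where it was high. Of the 7 genes above 2 TPM in a library of each line, none was past 2-fold (1.44% of all such genes), and AGRN alone was apart (8.08%) and had an unadjusted limma p-value under 0.05 (3.27%). In 4 of the 8, SDC2, SDC3, AGRN and HSPG2, the mean was higher in A549-TIPARP cells, as in 40.1% of all analysed genes, and in SDC1, SDC4, GPC1 and GPC6 it was lower. The median log2 fold change of the 8 was 0.14, beside -0.07 over all analysed genes. Without SDC2, among genes above 2 TPM in a library of each line, 3 of 7 had the higher mean (39.9% of all such genes) and the median was -0.09, beside -0.06. Part of this picture rested on control library 2. Without it, 5 of the 8 genes were separated, all higher in A549-TIPARP cells, as were 21.2% of analysed genes in that direction and 27.7% in either, and 6 of the 8 had a higher mean, as had 56.9% of all genes. The median was then 0.36, beside 0.05 over all genes.

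**Figure D1:**
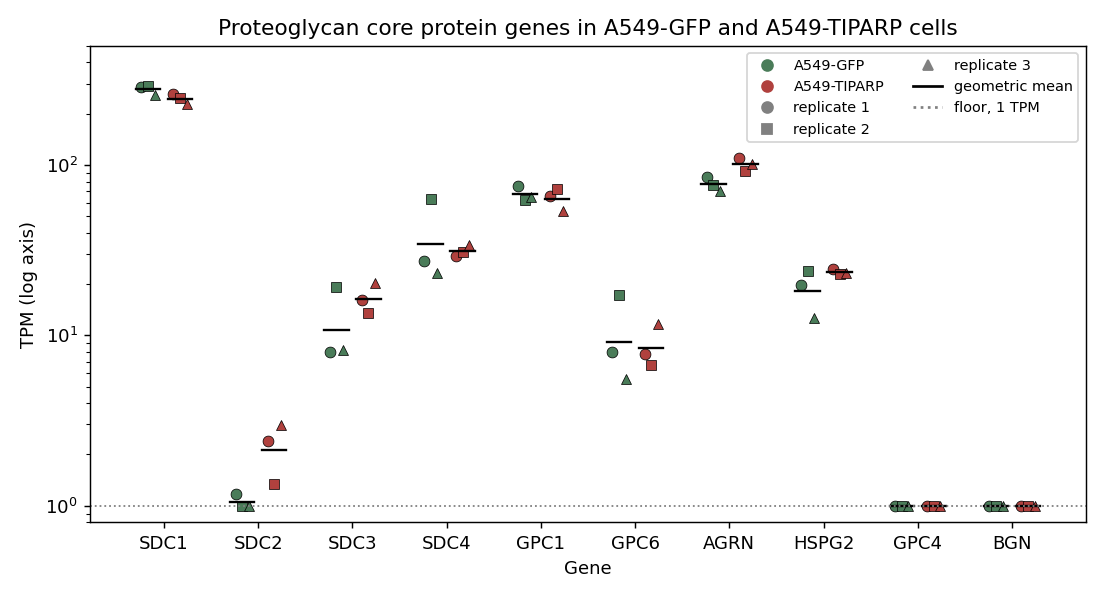
TPM of the 10 proteoglycan genes (log axis) in each library of A549-GFP (green) and A549-TIPARP (red) cells, with libraries 1, 2 and 3 as circles, squares and triangles, the geometric mean of 3 libraries as a bar and the floor of 1 TPM dotted. SDC1 was the highest gene in every library, from 228 to 291 TPM, GPC4 and BGN were at the floor in all 6, and the square of control library 2 lay above the other control libraries for SDC1, SDC3, SDC4, GPC6 and HSPG2.

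The levels spanned more than 100-fold between genes. SDC1 was highest in both lines, at 278 TPM (geometric mean) in the control line and 246 TPM in A549-TIPARP cells, and its libraries lay above those of every other gene. AGRN (77.2 and 100.9 TPM) and GPC1 (67.5 and 63.5 TPM) followed, then SDC4 (34.2 and 31.2 TPM), HSPG2 (18.2 and 23.5 TPM), SDC3 (10.8 and 16.4 TPM), GPC6 (9.16 and 8.44 TPM) and SDC2 (1.05 and 2.12 TPM). The order was the same in both lines. In A549-TIPARP cells the libraries of neighbours in this order did not overlap for any of the 7 pairs. In A549-GFP cells they overlapped for the 5 pairs from AGRN to GPC6, and the ends of the order, SDC1 above AGRN and GPC6 above SDC2, were clear of overlap. These overlaps are between different libraries. Within a control library the order changed only where SDC4 lay above GPC1 in library 2 (63.3 and 62.7 TPM). The other exception was GPC6 above SDC3 in library 1 (8.01 and 7.998 TPM).

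SDC1, also called CD138, is the main syndecan of epithelia and lies at chr2:20200797-20225433 of hg38 (minus strand), with 5 exons in its canonical transcript. It had 288, 291 and 256 TPM in control libraries 1, 2 and 3, and 261, 249 and 228 TPM in A549-TIPARP. The lines overlapped only in that control library 3 lay below TIPARP library 1. The mean log2 TPM was 8.12 ± 0.10 (SD, n = 3) in A549-GFP and 7.94 ± 0.10 (SD, n = 3) in A549-TIPARP cells, a log2 fold change of -0.18. The limma 95% interval of the difference on log2(TPM + 1) was -0.52 to 0.16 (limma adjusted p = 0.994). Leaving out control library 3 or TIPARP library 1 removes the overlap of the lines by construction. Without any one library the log2 fold change was -0.24 to -0.12.

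SDC2, a syndecan of mesenchymal cells and fibroblasts, lies at chr8:96493813-96611790 (plus strand). In A549-GFP cells it was at 1.17 TPM in library 1 and at the floor in the other two. The TIPARP libraries had 2.40, 1.34 and 2.96 TPM. All 3 TIPARP libraries were above all 3 control libraries, but by little in TIPARP library 2, and the gene passed the filter only through TIPARP libraries 1 and 3. The mean log2 TPM was 0.08 ± 0.13 (SD, n = 3) against 1.08 ± 0.59 (SD, n = 3), a difference of 1.01 on the log2 scale, in which the floor stands for any level below 1 TPM in 2 control libraries. In bulk RNA, fewer cells with a transcript and less of it in each cell cannot be told apart. On log2(TPM + 1) the difference was 0.62 with a 95% interval of 0.06 to 1.18 (limma adjusted p = 0.994). SDC2 remained past 2-fold when control library 1 or TIPARP library 2 was left out and not when any other library was, with log2 fold changes of 0.97 without control library 2 or 3, 0.92 without TIPARP library 1 and 0.77 without TIPARP library 3. The summed fibroblast markers moved with SDC2, at 1.44, 1.09 and 1.31 TPM in control libraries 1, 2 and 3 and 1.84, 1.64 and 2.56 TPM in the TIPARP libraries. Of these 10 genes, 8 were at the floor in every library. COL1A1 alone was analysed (log2 fold change 0.68) and passed the filter only through TIPARP library 3. The part of such cells in SDC2 was not tested.

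SDC3, a syndecan best known from nerve and muscle, lies at chr1:30869466-30908758 (minus strand). It had 7.998, 19.2 and 8.19 TPM in control libraries 1, 2 and 3, and 16.2, 13.6 and 20.2 TPM in A549-TIPARP. Control libraries 1 and 3 were below every TIPARP library, while control library 2 was above TIPARP libraries 1 and 2. The log2 fold change was 0.61, with 3.43 ± 0.72 (SD, n = 3) in A549-GFP and 4.04 ± 0.29 (SD, n = 3) in A549-TIPARP cells. The 95% interval on log2(TPM + 1) was -0.22 to 1.33 (limma adjusted p = 0.994). Without control library 2 the log2 fold change was 1.02 and the limma adjusted p-value 0.240 (its range was 0.240 to 1.0 across the alternatives), and SDC3, not SDC2, was then the gene past 2-fold. It was 0.39 without control library 1 and 0.41 without control library 3.

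SDC4, the broadly expressed syndecan of focal adhesions, lies at chr20:45325288-45348424 (minus strand). It had 27.3, 63.3 and 23.3 TPM in control libraries 1, 2 and 3. In A549-TIPARP cells it had 29.2, 30.9 and 33.8 TPM. Control library 2 was the highest of all, and the 2 other control libraries were the lowest, so the direction of the difference rested on 1 library. The log2 fold change was -0.13 with all libraries and 0.31 without control library 2. The 95% interval with all libraries was -0.92 to 0.65 (limma adjusted p = 0.994).

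**Figure D2:**
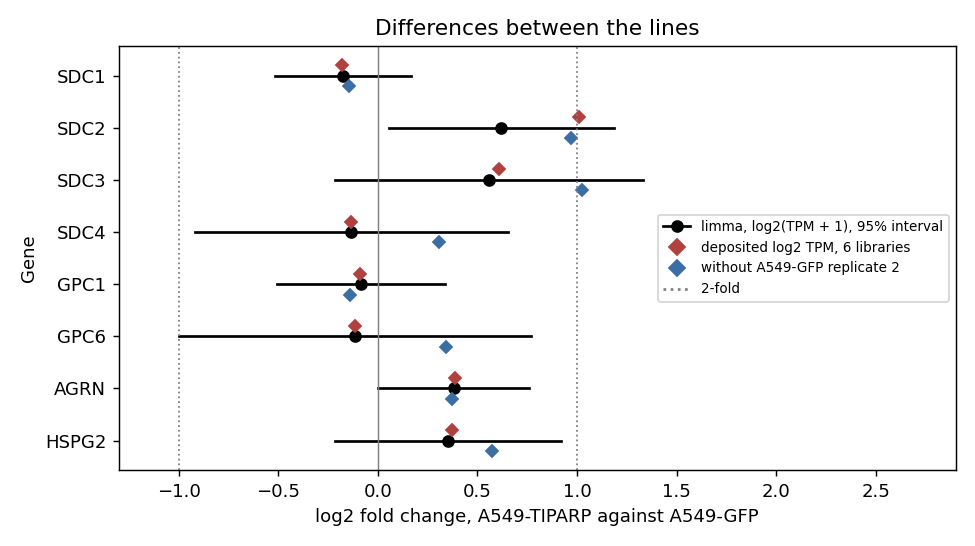
Log2 fold change of A549-TIPARP against A549-GFP cells for the 8 analysed genes: black points and lines are the limma difference on log2(TPM + 1) with its 95% interval over 6 libraries, red diamonds the difference of the deposited log2 TPM, and blue diamonds the same without control library 2. The interval of AGRN lies above 0 before adjustment, as does that of SDC2, which passed the filter only through TIPARP libraries and was at the floor in 2 control libraries, and the blue diamonds of SDC4 and GPC6 lie on the other side of 0 from the red ones.

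Within the syndecans, shares of the summed syndecan TPM do not change with the scaling of a library. SDC1 took 88.8%, 77.7% and 88.8% of it in control libraries 1, 2 and 3 and 84.55%, 84.46% and 80.01% in A549-TIPARP. The low share in control library 2 went with 16.9% of SDC4, where the other libraries had from 8.07% to 11.9%. The share of SDC3 was 2.47%, 5.13% and 2.84% in A549-GFP and 5.24%, 4.62% and 7.10% in A549-TIPARP, a difference of 2.17 percentage points (exact permutation test, two-sided, p = 0.2, n = 3). SDC2 took 0.267% to 0.360% in A549-GFP, with floor values counted as 1 TPM, and 0.454% to 1.04% in TIPARP libraries, and these did not overlap, for a gene that passed the filter only through TIPARP libraries (exact permutation test, two-sided, p = 0.1, n = 3). This is the smallest p-value that 3 libraries against 3 can give. For SDC1 and SDC4 the differences were -2.07 and -0.54 percentage points (exact permutation tests, two-sided, p = 0.6 and p = 1.0, n = 3). These 4 tests were not adjusted, and none could reach 0.05. Without control library 2 the difference for SDC4 was 2.35 percentage points, and for SDC1 -5.75.

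Of the glypicans, which modulate Wnt, Hedgehog and fibroblast growth factor signals, GPC1 was the main one expressed. GPC1 lies at chr2:240435663-240468076 (plus strand), with 9 exons. It had 75.8, 62.7 and 64.8 TPM in control libraries 1, 2 and 3, and 66.1, 72.3 and 53.7 TPM in A549-TIPARP, and the lines overlapped. Its log2 fold change was -0.09, with a 95% interval of -0.51 to 0.33 on log2(TPM + 1) (limma adjusted p = 0.994), and it was 0.03 without TIPARP library 3. GPC6, at chr13:93226807-94408020 (plus strand), had 8.01, 17.3 and 5.53 TPM in A549-GFP and 7.74, 6.67 and 11.7 TPM in A549-TIPARP. Its highest value was again in control library 2, and the lines overlapped. It had a log2 fold change of -0.12, and of 0.34 without that library, and the 95% interval was -0.9985 to 0.77 (limma adjusted p = 0.995). GPC6 was 21.7% of the summed GPC1 and GPC6 TPM in control library 2, 17.9% in TIPARP library 3, and from 7.86% to 10.5% in the other 4 libraries. GPC4, at chrX:133300103-133415489 (minus strand), was at the floor in every library, so its level was under 1 TPM or at it.

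The secreted heparan sulphate proteoglycans had higher means in A549-TIPARP cells. AGRN, which organises the neuromuscular junction and is also found in epithelial basement membranes, lies at chr1:1020120-1056118 (plus strand), with 36 exons. It had 85.5, 76.0 and 70.9 TPM in control libraries 1, 2 and 3, and 109.8, 92.3 and 101.3 TPM in A549-TIPARP. Every TIPARP library was above every control library. The mean log2 TPM was 6.27 ± 0.14 (SD, n = 3) in A549-GFP and 6.66 ± 0.13 (SD, n = 3) in A549-TIPARP cells, a 1.31-fold difference. On log2(TPM + 1) the difference was 0.38 with a 95% interval of 0.0027 to 0.76 (limma adjusted p = 0.994). Leaving out any one library gave 0.32 to 0.46 on the deposited scale. Lines that are apart with all libraries cannot overlap when a library is left out, so these comparisons do not test the separation. AGRN was above the upper quartile of transcript GC content (67.9%, where the quartile was 56.4%), as were SDC1, SDC3, GPC1 and HSPG2, and after correction of each library for GC content the log2 fold change was 0.29 and the lines overlapped.

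HSPG2, or perlecan, lies at chr1:21822244-21937310 (minus strand), with 97 exons. It had 19.7, 24.0 and 12.7 TPM in control libraries 1, 2 and 3, and 24.4, 22.8 and 23.3 TPM in A549-TIPARP. The TIPARP libraries were close together, and control library 2 lay among them. The log2 fold change was 0.37, with 4.18 ± 0.47 (SD, n = 3) against 4.55 ± 0.05 (SD, n = 3), and the 95% interval on log2(TPM + 1) was -0.22 to 0.92 (limma adjusted p = 0.994). It was 0.57 without control library 2 and 0.11 without control library 3, the lowest control library. BGN, at chrX:153494980-153509546 (plus strand), was at the floor in all 6 libraries.

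The sum of the 8 analysed genes was 514, 555 and 442 TPM in control libraries 1, 2 and 3 and 517, 489 and 475 TPM in A549-TIPARP, which overlapped. Within it, AGRN and HSPG2 together took 20.5%, 18.0% and 18.9% in A549-GFP and 26.0%, 23.6% and 26.2% in TIPARP libraries. The lines were apart for this share, with means of 19.1% ± 1.25 (SD, n = 3) and 25.2% ± 1.48 (SD, n = 3), and in control library 2 it lay with the other control libraries. This share was chosen after the values had been seen and was not tested.

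**Figure D3:**
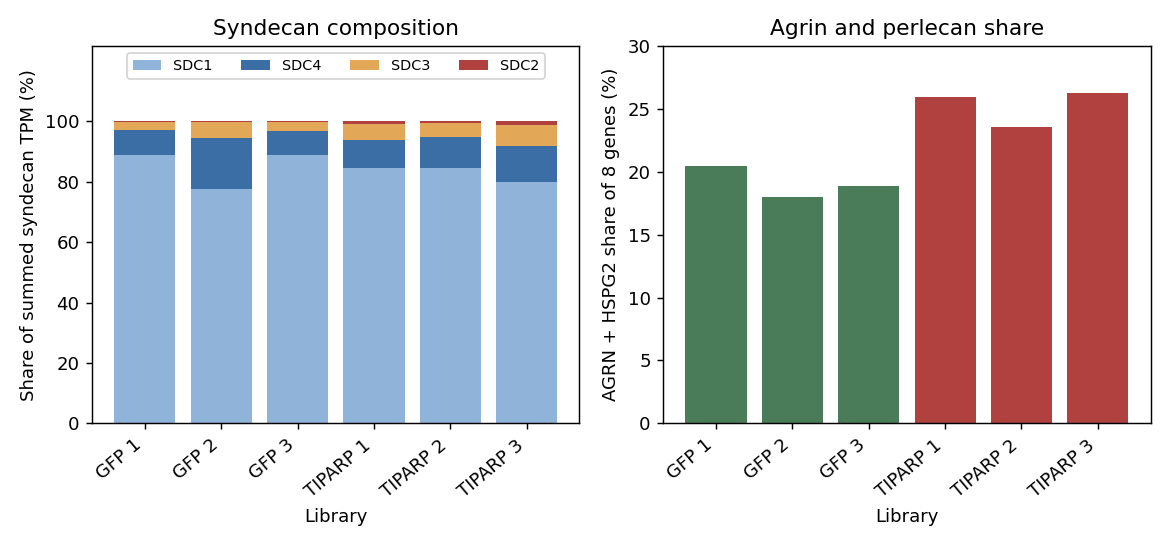
GFP 1 to 3 are the control libraries. Left, share of each syndecan in the summed syndecan TPM of each library in percent; right, share of AGRN and HSPG2 in the summed TPM of the 8 analysed genes in percent, on an axis from 0 (green A549-GFP, red A549-TIPARP). SDC1 made up 77.7% to 88.8% of syndecan TPM, and the AGRN and HSPG2 share was 18.0% to 20.5% in A549-GFP and 23.6% to 26.2% in TIPARP libraries. The AGRN and HSPG2 share was chosen after the values had been seen and was not tested.

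The genes that build, sulphate, remodel and read these chains were described in 7 lists with 112 distinct genes, of which 70 were analysed. By limma, 0 of the 70 passed an adjusted p-value of 0.05, and 4 an unadjusted one (5.71%, against 3.85% of all analysed genes). Past 2-fold were 4 of the 70 (5.71%, against 1.96%), and the lines did not overlap for 10 (14.3%, against 8.91%). HAPLN3 and DSE passed the filter only through TIPARP libraries and PRG4 only through control libraries. Of the 67 genes above 2 TPM in a library of each line, 3 were past 2-fold (4.48%, against 1.44% of all such genes), 3 had an unadjusted p-value under 0.05 (4.48%, against 3.27%) and 8 were apart (11.9%, against 8.08%). The median log2 fold change was 0.02 for the 70 genes and for the 67. Control library 2 was the highest library for 60.0% of the 70 genes, against 52% of all analysed genes.

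Among other core proteins and link proteins, 11 of 36 genes were analysed and 22 were at the floor throughout, with 2 past 2-fold higher (1.53% of all analysed genes), HAPLN3 and COL18A1, and 1 past 2-fold lower (0.432%), SMOC1. HAPLN3, a link protein that holds proteoglycans on hyaluronan, was at the floor in control libraries 1 and 2 and at 1.15 TPM in control library 3. It had 2.23, 2.01 and 2.97 TPM in A549-TIPARP (log2 fold change 1.18, limma adjusted p = 0.856). The gene was above 2 TPM in TIPARP libraries only, and its log2 fold change was 0.72 with a pseudocount of 1 and 3.41 with a pseudocount of 0.1. COL18A1, whose product is a basement membrane collagen that also carries heparan sulphate, had 30.4, 51.15 and 19.3 TPM in A549-GFP and 69.5, 53.65 and 82.3 TPM in A549-TIPARP. Its libraries did not overlap, the log2 fold change was 1.12 (limma adjusted p = 0.903), and it was 0.77 without control library 3. SMOC1, a secreted matricellular protein of basement membranes, had 32.2, 278 and 38.4 TPM in A549-GFP and 23.5, 21.7 and 73.1 TPM in A549-TIPARP. The log2 fold change was -1.07, and -0.08 without control library 2. SRGN, the intracellular granule proteoglycan serglycin, was lower in every TIPARP library (64.9, 170.0 and 65.4 TPM against 42.9, 56.5 and 56.6 TPM). The log2 fold change was -0.80, and -0.34 without control library 2 (limma adjusted p = 0.994 with all libraries). The median of the list was 0.17.

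Of the enzymes of heparan sulphate synthesis and sulphation, 11 of 21 were analysed, with a median log2 fold change of 0.04. HS3ST6, which adds the rare sulphate group at the 3-O position, had 1.69, 1.88 and 3.02 TPM in A549-GFP and 3.04, 5.13 and 6.76 TPM in A549-TIPARP. Its lines did not overlap, by a narrow margin, and its log2 fold change was 1.15 (limma adjusted p = 0.987). It was 0.89 without TIPARP library 3. The other 10 analysed genes of the list were within 2-fold. The 8 analysed genes of linker synthesis ranged from -0.41 to 0.12. The mean was higher in A549-TIPARP cells for 4 of them, beside 40.1% of all analysed genes. The 8 genes of sulphate donor supply ranged from -0.35 to 0.44. PAPSS1, a synthase of the sulphate donor PAPS, was at the top of that range and apart between the lines, with 20.5 to 28.2 TPM in A549-GFP and 29.3 to 35.7 TPM in TIPARP libraries (limma adjusted p = 0.994).

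In chondroitin and dermatan sulphate synthesis 14 of 16 genes were analysed and none was past 2-fold, with a median of 0.24. The lines were apart for 4 of them, beside 8.91% of all analysed genes. The epimerase DSE had 1.55 to 1.79 TPM in A549-GFP and 2.32 to 2.53 TPM in TIPARP libraries, so that it passed the filter only through the latter. The sulphotransferases CHST12 (12.7 to 14.6 TPM against 15.4 to 21.1 TPM) and CHST14 (12.8 to 15.0 TPM against 15.1 to 18.7 TPM) were also higher in A549-TIPARP cells. CHST11 was lower, at 6.43 to 12.9 TPM in A549-GFP and 5.39 to 6.25 TPM in TIPARP libraries. The limma adjusted p-value was 0.994 for each of the 4. SRGN, PRG4, PAPSS1, DSE, CHST11, CHST12 and CHST14 were named after their values had been seen.

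Among genes of heparan sulphate editing and degradation, 10 of 13 were analysed and none was past 2-fold, with a range from -0.26 to 0.99 and a median of 0.05, which was 0.40 without control library 2. Of 8 analysed intracellular partners of syndecans, 1 was higher on average in A549-TIPARP cells, beside 40.1% of all analysed genes. The median of the list was -0.14, and -0.01 without control library 2. The higher gene was GIPC1, a PDZ-domain adaptor that binds SDC4, with 122, 131.5 and 135 TPM in A549-GFP and 218, 191 and 191 TPM in A549-TIPARP. The log2 fold change was 0.62 (limma adjusted p = 0.639), and without any one library it ran from 0.56 to 0.66. The other 7 ranged down to -0.42.

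**Figure D4:**
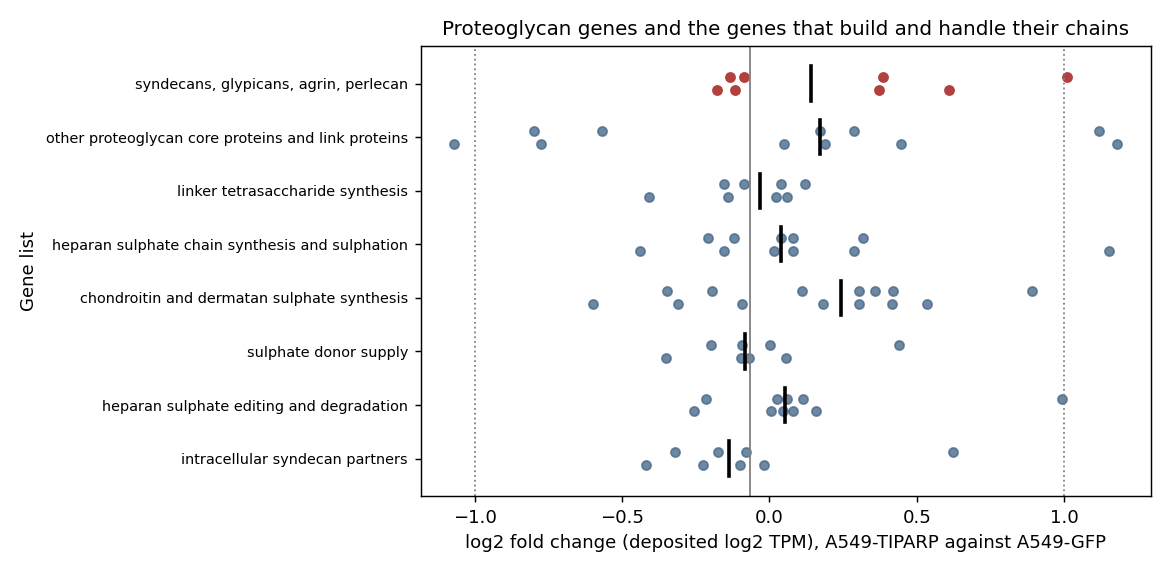
Log2 fold change of A549-TIPARP against A549-GFP (deposited log2 TPM) for the 8 proteoglycan genes (red) and for the analysed genes of 7 lists (blue), 1 point per gene, with the median of each list as a bar, the median of all analysed genes (-0.07) as a grey line and 2-fold dotted. Medians of the lists lie between -0.14 and 0.24, and 4 list genes lie past 2-fold.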

How the data were processed

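RNA of A549-GFP and A549-TIPARP cells (3 libraries each) was analysed. The authors used Strand NGS with default settings to align paired-end NovaSeq reads to hg38 transcripts and deposited log2 TPM of 53826 entries for each library, raising TPM under 1 to 1. The software version, annotation release and treatment of multi-mapping reads are not given in the sources used here. TPM carries no depth, so no counting error was computed.

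Lines and replicate numbers were taken from the sample titles. A gene was analysed where any of the 6 libraries exceeded 2 TPM. Deposited values were turned back to TPM and lines were compared on log2(TPM + 1) by limma 3.58.1 (R 4.3.3), with its trend option and no block. Syndecan shares were compared by exact permutation tests (scipy 1.17.1). Gene coordinates came from GENCODE 44 (hg38) and promoter windows from RefSeq. GC content of the longest GENCODE transcript was matched for 98.3% of analysed genes, and each library was corrected by a lowess curve (span 0.3, statsmodels 0.14.6) as an alternative. The other alternatives were the pseudocount (1 or 0.1), arithmetic means, filters, median-ratio rescaling, limma settings, the replicate block and each library left out.

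Named genes are the 10 proteoglycan genes, TIPARP, and of each list up to 3 genes per direction with the largest change among those past 2-fold or with an unadjusted p-value under 0.05. Marker genes are named as examples of their lists, and pathway genes outside this rule are marked as such in the text. The genes and lists were chosen with earlier results of these data known.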

Additional observations from a re-analysis of the deposited data

How the results depend on the processing

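No alternative gave any of the 8 proteoglycan genes a limma adjusted p-value under 0.05. With a pseudocount of 1 in the fold change, and with TPM above 2 required in 3 libraries (which leaves out SDC2), 0 of the genes were past 2-fold in place of 1. With each library left out the count was 0 or 1. Over all analysed genes the 259 past 2-fold became 98 at pseudocount 1 and 892 at pseudocount 0.1, and 278 to 477 without any one library, and among list genes the 4 became 2 and 7, or 2 to 5 without any one library. The lines did not overlap for 1 gene in place of 2 with the filter on 3 libraries, and for 1 gene after the GC correction, alone or with the replicate block, where AGRN overlapped. With each library left out the count was from 2 to 5, and it was 5 without control library 2. GPC6 changed direction with the GC correction, with or without the block (0.0097). With each library left out, log2 fold changes ran from -0.41 to 0.31 for SDC4, from -0.18 to 0.0334 for GPC1 and from -0.48 to 0.34 for GPC6, and the share of SDC4 among syndecans from -2.07 to 2.35 percentage points. Median-ratio rescaling moved the median of all genes by 0.07 and separated HSPG2 as well, which gave 3 genes. A filter on genes above 2 TPM in a library of each line, chosen after seeing the data, left out SDC2, with 0 proteoglycan genes past 2-fold and 1 apart, and 3 list genes past 2-fold.

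Libraries of the same experiment moved together in experiment 1 (r = 0.415 across genes) and not in experiments 2 and 3 (r = -0.486 and -0.358). No control library correlated best with the TIPARP library of its own number. A replicate block on that number in limma gave an adjusted p-value of 0.999 for all 8 proteoglycan genes, an unadjusted one of 0.0566 for SDC2 and 0.0721 for AGRN, and 1 gene of all passed in place of 2. For TIPARP the log2 fold change of 4.11 was the same with the block and with no filter, with adjusted p-values of 0.513 and 0.0965. With no filter, limma was run on the 14618 entries above the floor in a library. Depth is unknown, so no limit can be set on GPC4 and BGN below 1 TPM.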
